A study of Mus musculus with 6 samples.

Results

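The amylase gene cluster of the mouse is the set of tandem copies that encode alpha-amylase, the secreted enzyme that cuts starch. Its 7 members were taken as the rows of the count table named Amy1, Amy2a1, Amy2a2, Amy2a3, Amy2a4, Amy2a5 and Amy2b, out of 56953 genes in all. Amylase messenger RNA was read in 6 bulk RNA-seq libraries of primary pancreatic acinar cells, cultured for 3 days while explanted acini turn into duct-like structures (acinar-to-ductal metaplasia, ADM). The comparisons ask how loss of DKK3, a secreted glycoprotein, and its return as recombinant protein relate to the level of each amylase copy.

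Each of the 3 groups had 2 libraries. WT acini carried the intact Dkk3 gene and were labelled as 10 and 11 weeks old. DD acini came from Dkk3-null mice labelled as 12 and 13 weeks old, and DD + rDKK3 acini came from Dkk3-null mice labelled as 14 and 15 weeks old and received the recombinant protein. Labelled age and group therefore cannot be told apart. All cultures were grown in Waymouth medium with serum, trypsin inhibitor and dexamethasone, a glucocorticoid. The null allele is ubiquitous and replaces exon 2 of Dkk3, which encodes the secretion signal, so it is not confined to acinar cells, and strain background was not given in the sources used here. The libraries of a group differ in labelled age, but no label names the animals, so p-values measure the spread between these libraries, whatever its source.

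Pancreatic amylase is made in acinar cells, stored in zymogen granules and released into the gut, where it starts the breakdown of starch that brush border enzymes finish. In the mouse the Amy2 copies are the pancreatic type, and Amy1 is the copy known for expression in salivary gland and liver. Transcription of acinar enzyme genes depends on PTF1, a complex of PTF1A, RBPJL and an E protein. Amylase is also a classic glucocorticoid-responsive product of cultured acinar cells.

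Library totals ranged from 12018473 to 19750401 counts, and the counts credited to the amylase rows took 0.0152% to 0.0507% of them. Dkk3 itself had 10 and 1 counts in WT, 11 and 9 in DD, then 5 and 5 in DD + rDKK3, below the filter on low counts, and a gene-level count does not test the loss of exon 2. The library WT 2 was labelled female and the others male. CPM are counts normalised to library depth, here scaled by TMM, the trimmed mean of M values. Y-linked genes stood at 141 CPM in WT 2, within the range of 119 to 147 CPM of all libraries, and WT 2 was the only library with Xist counts, 16 of them. DD 2 and DD + rDKK3 2 stood apart from the other libraries in fibroblast and macrophage markers, as given below beside the results. The acinar label held in every library, since the 5 acinar markers summed to between 60993 and 106207 CPM. All 4 salivary markers, Bpifa2, Smr3a, Dcpp1 and Dcpp2, had 0 counts in all 6 libraries.

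All 7 copies lie on the minus strand of chromosome 3 in GRCm39, between Amy2b (113054972 to 113064043) and Amy1 (113349359 to 113400348). Between them, by rising coordinate, lie Amy2a5 (113154494 to 113166153), Amy2a4 (113187159 to 113198765), Amy2a3 (113219771 to 113231368), Amy2a2 (113252371 to 113263974) and Amy2a1 (113323052 to 113326077). The deposited table calls Amy2b an unprocessed pseudogene and the other 6 protein coding, while the RefSeq gene table of the older build GRCm38.p6 calls Amy2b protein coding. In its annotated transcript the longest open reading frame of Amy2b had 264 codons, against 508 in Amy2a2 to Amy2a5 and 511 in Amy1. The Amy2a1 transcript was annotated with 4 exons and 890 bases, and its reading frame runs off the end without a stop codon.

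The copies differ so little that sequence decides which of them a read can be credited to. The following 50-base stretch of exon 2, inside the Amy2b reading frame, has the length of 1 read and separates the 3 kinds of copy. It was picked among 646 stretches for the most differences from Amy2b in the closer of Amy1 and Amy2a5, so it is not typical. Capitals mark bases that differ from Amy2b, and all run 5′ to 3′ on the coding strand of GRCm39. The stretch lies at chr3:113063464-113063513 in Amy2b, at chr3:113363115-113363164 in Amy1, where it falls in exon 3, and at chr3:113165438-113165487 in Amy2a5.
Amy2b: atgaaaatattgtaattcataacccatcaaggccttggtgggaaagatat
Amy1: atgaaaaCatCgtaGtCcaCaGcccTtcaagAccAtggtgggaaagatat
Amy2a5: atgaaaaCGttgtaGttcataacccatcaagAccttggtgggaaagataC
Amy1 differed from Amy2b at 9 of the 50 bases and Amy2a5 at 5. The Amy2a5 letters are found unchanged in 5 transcripts of the cluster, those of Amy2a1 to Amy2a5, so a read here can tell Amy2b from the Amy2a copies but not those from each other. Of 646 such stretches of the Amy2b reading frame, 340 (52.6%) held no difference between Amy2b and Amy2a5.

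Over whole transcripts, Amy2b and Amy2a5 shared 97.6% of 1577 aligned bases, and Amy1 and Amy2b shared 89.5% of 1575. Amy2a2, Amy2a3 and Amy2a4 were identical over all 3717 bases. Windows of 50 bases that occur in no other copy, neither in its transcript nor in its part of the cluster, made up 97.3% of the Amy1 transcript (1884 of 1936) and 59.0% of Amy2b (901 of 1528). They made up 42.9% of Amy2a5 (1572 of 3666), all of them downstream of the part that aligns to Amy2b. In the aligned part, which holds the whole reading frame, 0 of 1530 windows of Amy2a5 were its own. Amy2a1 had 43 of 841 windows of its own (5.11%), and Amy2a2, Amy2a3 and Amy2a4 had 0 of 3668 each. Reads were paired, and for fragments of an assumed 200 bases with a 50-base read at each end, at least 1 read was the copy's own in 100% of Amy1 fragments, 85.05% of Amy2b, 53.8% of Amy2a5, 6.22% of Amy2a1 and 0% of the other 3.

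**Figure D1:**
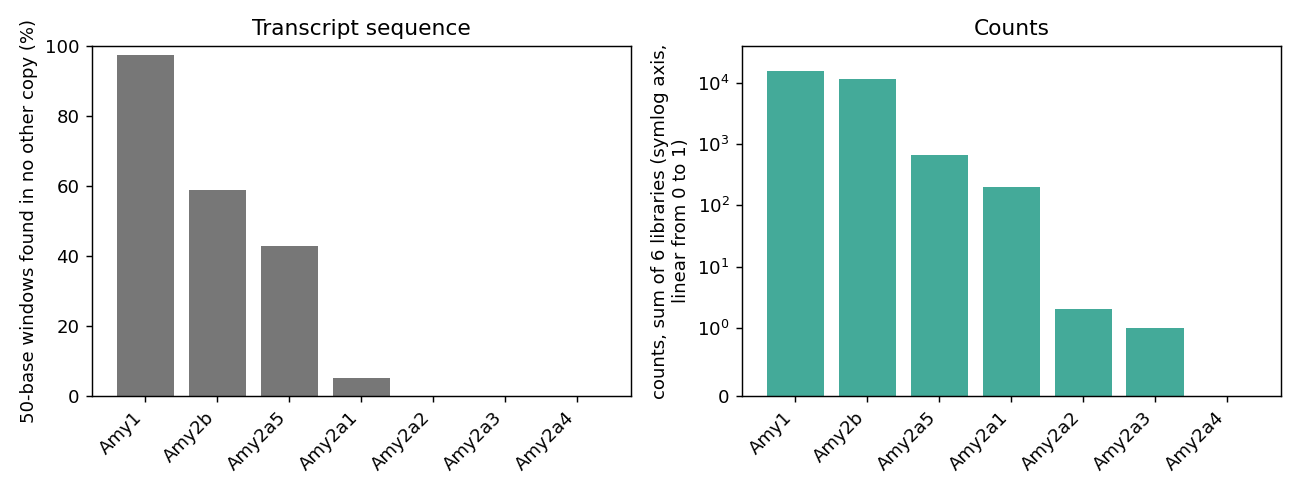
The left panel gives, for each copy on the x axis, the percentage of 50-base windows of its transcript found in no other copy, and the right panel gives its counts summed over the 6 libraries on a symlog axis that is linear from 0 to 1. Amy1 (97.3% of windows, 15696 counts) and Amy2b (59.0%, 11531 counts) lead both panels, and Amy2a2, Amy2a3 and Amy2a4, with no window of their own, have 2, 1 and 0 counts.

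The counts followed this order. Amy1 had 15696 counts over the 6 libraries, Amy2b 11531, Amy2a5 670 and Amy2a1 201. Amy2a2 had 2 counts, Amy2a3 had 1 and Amy2a4 had 0, in the copies that no 50-base read can single out. How reads that fit several copies were treated, beyond ignoring secondary alignments, is not fully given in the sources used here. Without that, the level of these 3 copies is not readable from the table, and their low counts alone do not show that they were silent. The floor of 3 counts, 0.295 CPM in the shallowest library, WT 1, applies to countable reads. It does not bound copies whose reads cannot be singled out. The coding part of Amy2a5 has no window of its own either, so its counts can be told from other copies only where a read reaches its downstream stretch. The amylase sum below is a sum over what was countable, mostly Amy1 and Amy2b.

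The promoters of Amy2b and Amy2a5 are shown because these copies, so alike in the transcript, differ upstream of their RefSeq starts. Each run holds 250 bases before the start of transcription and 50 after, from the RefSeq promoter table of GRCm38.p6, which matched all 7 members by symbol. The Amy2b run matches GRCm39 once, at chr3:113063994-113064293 on the minus strand. Capitals mark the E-box CANNTG, bound by basic helix-loop-helix factors such as PTF1A, and the TATA box letters TATAAA.
Amy2b: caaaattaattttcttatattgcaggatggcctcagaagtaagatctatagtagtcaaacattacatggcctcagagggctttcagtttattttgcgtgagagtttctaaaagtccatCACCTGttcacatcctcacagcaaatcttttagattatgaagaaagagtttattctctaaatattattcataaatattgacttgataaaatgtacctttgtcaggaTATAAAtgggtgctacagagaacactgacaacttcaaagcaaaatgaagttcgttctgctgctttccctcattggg
Amy2a5: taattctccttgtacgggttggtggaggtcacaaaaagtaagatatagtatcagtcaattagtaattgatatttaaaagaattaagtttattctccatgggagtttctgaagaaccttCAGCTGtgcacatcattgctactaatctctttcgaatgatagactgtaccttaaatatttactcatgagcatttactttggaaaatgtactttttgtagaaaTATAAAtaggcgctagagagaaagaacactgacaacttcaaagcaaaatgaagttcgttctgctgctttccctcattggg
The Amy2a5 run occurs 4 times on that strand of chromosome 3, near the starts of Amy2a5 (chr3:113165966-113166265), Amy2a4, Amy2a3 and Amy2a2, so these copies share it letter for letter. Amy2b and Amy2a5 were identical at 76.0% of 287 aligned promoter bases, less than in their transcripts. Each had 1 E-box, at position -132 from the RefSeq start of transcription, spelled CACCTG in Amy2b and CAGCTG in Amy2a5. For Amy2a5 that start lies 138 bases inside the GENCODE gene of GRCm39. From the GENCODE start the same CAGCTG is at position 6, within the transcript. For Amy2b the starts agree. Searched on both strands, CACCTG is in 20.2% of 32851 promoters of this table, CAGCTG in 16.3%, either spelling being a form of CANNTG, which is in 72.3%. Both promoters also hold TATAAA (13.6% of promoters), TTTCCC (25.3%), the second box of the PTF1 site as it is known from enzyme genes, here 36 bases after the first transcribed one, and TGTTCT (19.0%), an element known from glucocorticoid receptor sites.

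Among the copies tested, Amy2b had the largest difference between WT and Dkk3-null libraries, although it missed the threshold for a call. It had 4111 and 3279 counts in WT, 812 and 955 in DD, then 1047 and 1327 in DD + rDKK3. In CPM, WT 1 stood at 403.9 and WT 2 at 230.3, against 38.4 in DD 1, 56.1 in DD 2, 55.3 in DD + rDKK3 1 and 71.4 in DD + rDKK3 2. Both WT libraries were above all 4 Dkk3-null libraries, and DD overlapped DD + rDKK3. The means were 317 ± 123 CPM in WT, 47.3 ± 12.5 in DD, then 63.3 ± 11.4 in DD + rDKK3 (SD, n = 2 each).

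Amy2b in DD was 6.71-fold lower than in WT, a log2 fold change of -2.75 with an SE of 0.32. This was the 7th smallest p among 14738 genes tested (3.73e-05), but the adjusted p of 0.0786 (edgeR quasi-likelihood test, Benjamini-Hochberg over all genes) missed the threshold of 0.05. It passed with limma-voom (adjusted p = 0.0495), with the DESeq2 Wald test (4.73e-16), in edgeR without the filter on low counts (1.57e-33) and with a replicate block within the Dkk3-null libraries (0.000672), and its adjusted p over all alternatives ran from 5.28e-36 to 0.284. Without WT 1, the higher WT library, the log2 fold change was -2.27, and without WT 2, the library whose sex label and Y-linked level stood at odds, it was -3.09.

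DD + rDKK3 against WT gave a similar distance, 5.0-fold lower (log2 fold change -2.32, SE 0.32, adjusted p = 0.171 by edgeR). It passed with the DESeq2 Wald test (adjusted p = 2.5e-11), in edgeR without the filter (1.07e-24) and with a replicate block within the Dkk3-null libraries (0.0021), but not with limma-voom (0.142). Both comparisons share the WT libraries. Between DD + rDKK3 and DD, Amy2b differed by a log2 fold change of 0.42 (SE 0.31, adjusted p = 1 by edgeR). A p that misses the threshold does not show that these groups were alike. In bulk RNA, fewer acinar cells and less amylase RNA in each acinar cell cannot be told apart.

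Amy1, the copy outside the Amy2 type, did not follow that pattern. Its counts were 1815 and 1626 in WT, 2097 and 2592 in DD, then 3031 and 4535 in DD + rDKK3. In CPM, WT stood at 178.3 and 114.2, DD at 99.2 and 152.4, and DD + rDKK3 at 160.1 and 243.9. WT and DD overlapped, and both DD + rDKK3 libraries were above both DD libraries.

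For Amy1 the log2 fold change was -0.22 (SE 0.31) in DD against WT, with an adjusted p of 0.798 by edgeR, and without WT 1 it was 0.16. DD + rDKK3 against DD gave 0.68 (SE 0.31, adjusted p = 1 by edgeR), and DD + rDKK3 against WT gave 0.47 (SE 0.31, adjusted p = 0.451). None of the 3 passed the test. The Amy1 locus overlaps 1633 bases of its neighbour Rnpc3 on the same strand, and union-mode counting leaves out reads that touch exons of both genes.

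Amy2a5 and Amy2a1 had small counts, and only reads from stretches of their own can be told from those of other copies. Amy2a5 had 139 and 69 counts in WT, 75 and 99 in DD, then 149 and 139 in DD + rDKK3. Amy2a1 had 23 and 20 counts in WT, 22 and 31 in DD, then 44 and 61 in DD + rDKK3. For both copies WT and DD overlapped in CPM, and DD + rDKK3 lay above DD in both libraries.

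Amy2a5 averaged 9.25 ± 6.23 CPM in WT, 4.68 ± 1.61 in DD, then 7.67 ± 0.28 in DD + rDKK3 (SD, n = 2 each). Its log2 fold change was -0.97 (SE 0.47, adjusted p = 0.586 by edgeR) in DD against WT, where WT 1 alone stood high at 13.7 CPM and WT 2 was at 4.85, and without WT 1 the value was -0.038. Amy2a1 averaged 1.83 ± 0.60 CPM in WT, 1.43 ± 0.55 in DD, then 2.80 ± 0.68 in DD + rDKK3. DD + rDKK3 against DD gave Amy2a1 a log2 fold change of 0.98 (SE 0.42, adjusted p = 1 by edgeR) and Amy2a5 one of 0.72 (SE 0.46, adjusted p = 1). The remaining values were -0.35 (Amy2a1, DD against WT), 0.63 (Amy2a1, DD + rDKK3 against WT) and -0.25 (Amy2a5, DD + rDKK3 against WT), with adjusted p-values of 0.768, 0.462 and 0.79 by edgeR.

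**Figure D2:**
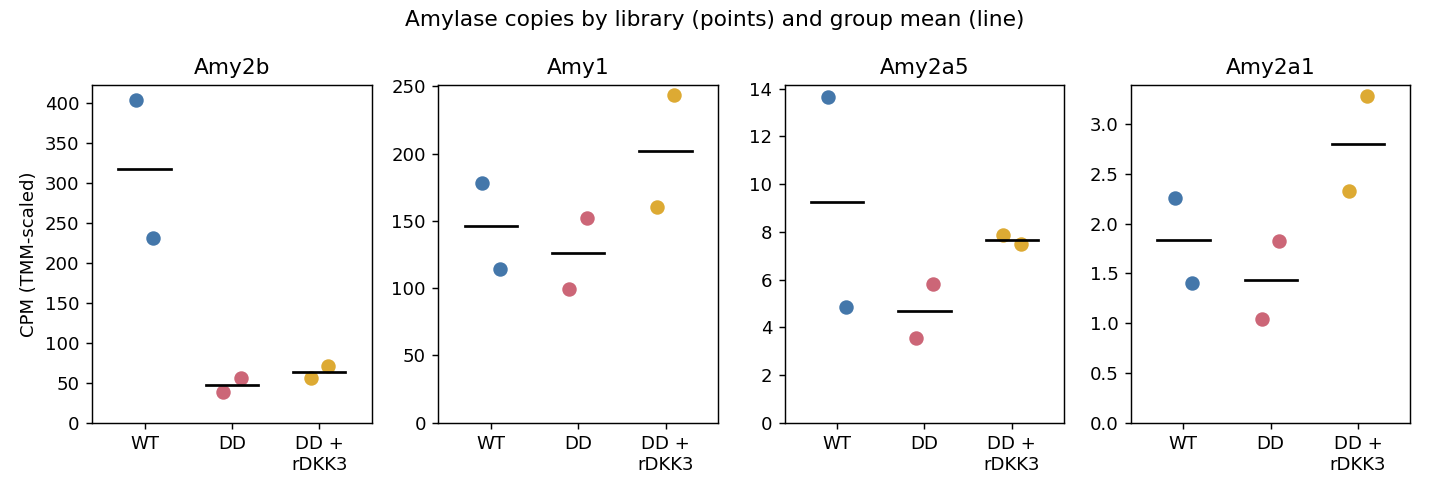
Each panel plots 1 amylase copy, with TMM-scaled CPM from 0 on the y axis, the 3 groups on the x axis, 1 point for each library and a line at the group mean. The 2 WT points of Amy2b (403.9 and 230.3 CPM) lie above all 4 Dkk3-null points (38.4 to 71.4), while the WT and DD points of the other 3 copies overlap.

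Of the 7 copies, 4 passed the filter on low counts. None of the 4 was called at an adjusted p under 0.05 in any of the 3 comparisons. Over all 14738 genes tested, 0.0407% were called in DD against WT (6 genes), 0% in DD + rDKK3 against DD (0 genes) and 0.0475% in DD + rDKK3 against WT (7 genes). In DD + rDKK3 against DD, 292 genes had an unadjusted p under 0.05, and the DESeq2 Wald test called 5 genes and limma-voom 0, with no amylase copy among them. Groups that did not overlap were common, 37.8%, 29.5% and 55.0% of all genes in these 3 comparisons, so a lack of overlap between 2 and 2 libraries singles out no copy.

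Per kilobase of 1 annotated transcript of each copy, Amy2b led in WT and Amy1 in both Dkk3-null groups. Counts cover all annotated exons, which span 5055 bases in Amy1 against 1985 in the transcript used here. For Amy2b both lengths are 1577 bases. Over the longer length Amy1 would stand lower, so its lead in the Dkk3-null groups depends on the length chosen. The windows used below come from the same transcripts. In WT, Amy2b stood at 201.1 ± 77.8 CPM per kb and Amy1 at 73.7 ± 22.8 (SD, n = 2). In DD, Amy1 stood at 63.4 ± 18.9 and Amy2b at 30.0 ± 7.94, and with rDKK3 at 101.8 ± 29.9 and 40.2 ± 7.21. If shared reads were left out, this scale understates copies whose reads are partly shared, so levels were also set over the number of 50-base windows of each copy's own. Reads were paired, though, and 85.05% of the assumed Amy2b fragments held a read of its own, against 59.0% of its windows. For Amy1 these were 100% and 97.3%. If pairs were the unit counted, the window scale overstates Amy2b beside Amy1. Per kb of own windows, Amy2b stood at 351.9 ± 136.2 CPM and Amy1 at 77.6 ± 24.1 in WT. In DD the values were 52.5 ± 13.9 for Amy2b and 66.8 ± 19.9 for Amy1, within the spread of each other, and with rDKK3 they were 70.3 ± 12.6 and 107.2 ± 31.5. How far Amy2a1 and Amy2a5 lay apart depended on the scale. Per kb of transcript their group means were 1.61 to 3.15 and 1.26 to 2.49 CPM, ranges that meet, and per kb of own windows 33.3 to 65.2 and 2.98 to 5.88, the former resting on the 43 windows of Amy2a1.

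Shares within the family need no scaling between libraries. Amy2b made up 67.5% of amylase counts in WT 1 (95% Wilson interval 66.3 to 68.7) and 65.7% in WT 2 (64.3 to 67.0). It made up 27.0% in DD 1 (25.4 to 28.6), 26.0% in DD 2 (24.6 to 27.4), 24.5% in DD + rDKK3 1 (23.2 to 25.8) and 21.9% in DD + rDKK3 2 (20.9 to 22.9). The intervals cover counting error only, as reads carried no molecular identifiers. The intervals of the WT libraries overlap each other and lie far above those of all 4 Dkk3-null libraries.

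The mean Amy2b share was 66.6% ± 1.31 in WT, 26.5% ± 0.73 in DD, then 23.2% ± 1.86 in DD + rDKK3 (SD, n = 2 each). The difference was -40.1 percentage points in DD against WT, -43.4 in DD + rDKK3 against WT and -3.29 in DD + rDKK3 against DD. With 2 libraries against 2, the exact two-sided permutation test cannot go below p = 0.333, and each of the 3 differences gave that value. Amy1 took most of the rest, with 31.2% ± 1.95 of amylase counts in WT, 70.1% ± 0.53 in DD, then 72.9% ± 2.71 in DD + rDKK3. Put as a ratio, there were 2.27 and 2.02 Amy2b counts for each Amy1 count in the WT libraries, 0.387 and 0.368 in DD, then 0.345 and 0.293 in DD + rDKK3.

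**Figure D3:**
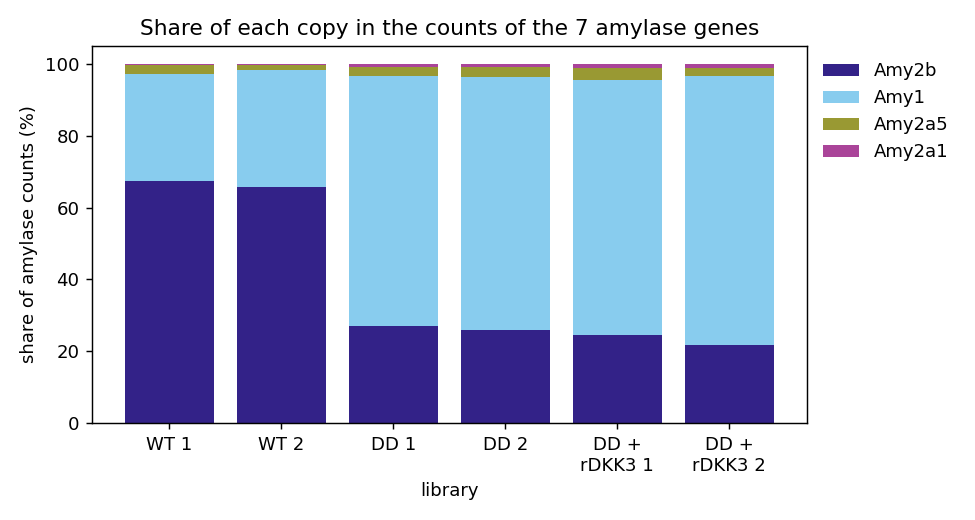
Stacked bars give the share of each copy (colour) in the counts of the 7 amylase genes, in percent on the y axis, for each of the 6 libraries on the x axis. Amy2b takes 67.5% and 65.7% in the WT libraries and 21.9% to 27.0% in the 4 Dkk3-null libraries, where Amy1 is the larger part.

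The summed level of the countable amylase is mostly that of Amy2b and Amy1 together. Reads shared by several Amy2a copies may be missing from it, so it need not follow total amylase RNA. The sum was 598.2 and 350.8 CPM in WT, 142.3 and 216.2 in DD, then 225.6 and 326.1 in DD + rDKK3. All WT values were above all DD values, all DD + rDKK3 values were above all DD values, and none of the DD + rDKK3 values reached WT. The group means were 474.5 ± 174.9, 179.2 ± 52.2 and 275.8 ± 71.1 CPM (SD, n = 2 each).

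The countable family sum in DD was 2.65-fold lower than in WT (log2 ratio -1.40), and 1.54-fold higher in DD + rDKK3 than in DD (log2 ratio 0.62). Against WT, DD + rDKK3 had a log2 ratio of -0.78. The exact two-sided permutation p was 0.333 in each case, the smallest the design allows. Without Amy2b, the sum of the other copies gave log2 ratios of -0.25 in DD against WT, 0.69 in DD + rDKK3 against DD and 0.43 in DD + rDKK3 against WT. The distance of the sum from WT thus rested on Amy2b, while its difference between DD + rDKK3 and DD was as large without it.

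Markers of other cells moved with part of these values. The 6 fibroblast and stellate markers summed to 657 CPM in DD 2 and 743 in DD + rDKK3 2, against 32.8 to 128.8 in the other 4 libraries. The 4 macrophage markers summed to 180.3 and 140.2 CPM in these libraries and to between 54.2 and 75.3 elsewhere. Within DD and within DD + rDKK3, the library high in these markers also had more Amy1, Amy2b and Amy2a1. None of the defining markers was at 0, except that all 4 salivary markers were. Ductal markers (812 to 1247 CPM), endothelial markers (42.2 to 84.8) and islet markers (62.2 to 146.4) varied less. Without DD 2, DD against WT gave Amy2b a log2 fold change of -3.04, and without DD + rDKK3 2 that in DD + rDKK3 against WT was -2.51. For Amy1 in DD + rDKK3 against DD, the value was 0.34 without DD + rDKK3 2 and 1.03 without DD 2. The part of these cells in the amylase values was otherwise not tested.

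Other digestive enzymes and granule proteins of the acinar cell gave the frame for these values. Of 30 genes in that list 29 were tested, and none was called in any comparison. In DD against WT all 29 were lower, as were 48.3% of all genes tested, with a median log2 fold change of -0.70 against 0.016. Of the 29, 13 had an unadjusted p under 0.05, as had 1217 of all 14738 genes (8.26%). In DD + rDKK3 against DD, 27 of 29 were higher, with a median of 0.22 against -0.0028, while 50.5% of all genes were lower. In DD + rDKK3 against WT, 28 of 29 were lower, as were 48.4% of all genes, with a median of -0.45 against 0.017. The DESeq2 Wald test called 5, 1 and 1 of the 29 in these comparisons, and 80, 5 and 74 of all 14738 genes. EdgeR without the filter called 7, 0 and 2 of them, and 528, 73 and 788 of 26506 genes.

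The most abundant of these was Ctrb1, a chymotrypsinogen, with 66739 and 51952 CPM in WT, 54192 and 40344 in DD, then 56009 and 45690 in DD + rDKK3. Ctrb1 overlapped between all groups, and DD against WT gave a log2 fold change of -0.33 (SE 0.25). Next came the trypsinogens Prss2 (-0.54, SE 0.20) and Try5 (-0.52, SE 0.25), the carboxypeptidase Cpa1 (-0.25, SE 0.30) and Pnliprp1, a lipase-related protein (-0.90, SE 0.26). Their values in DD + rDKK3 against DD were 0.11 for Ctrb1, 0.24 for Prss2, 0.40 for Try5, 0.13 for Cpa1 and 0.55 for Pnliprp1.

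By smallest p, the enzymes of DD against WT were the ribonuclease Rnase1 (log2 fold change -0.85, SE 0.21), the trypsinogen Try10 (-0.59, SE 0.17) and again Pnliprp1, with adjusted edgeR p-values of 0.555 to 0.586. In DD + rDKK3 against DD they were the kallikrein Klk1 (0.64, SE 0.18), Rnase1 (0.56, SE 0.21) and Pnliprp1, all with an adjusted edgeR p of 1. In DD + rDKK3 against WT they were Prss3 (-1.12, SE 0.32), the elastase Cela1 (-0.95, SE 0.36) and Try10 (-0.40, SE 0.16), all with an adjusted edgeR p of 0.321. The log2 fold change of Amy2b in DD against WT was larger in size than that of each of the 29, which lay between -1.11 and -0.25, while Amy1 lay above all of them. The countable amylase, mostly Amy1 and Amy2b, was also set against the counts of amylase and these enzymes together. It came to 0.239% and 0.184% of them in WT, 0.0890% and 0.152% in DD, then 0.117% and 0.204% in DD + rDKK3. How reads that fit several Amy2a copies were treated is not fully given, so the full amylase part is not readable from these values.

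**Figure D4:**
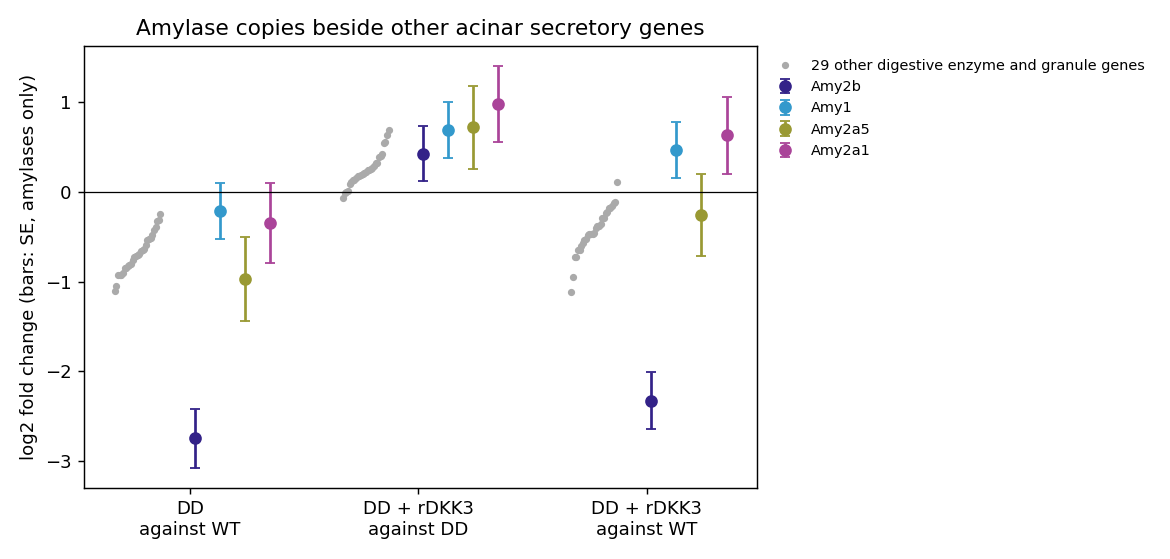
The y axis gives log2 fold changes in the 3 comparisons on the x axis, with grey points for 29 other digestive enzyme and granule genes and coloured points with SE bars for the 4 amylase copies tested. Amy2b lies at -2.75 in DD against WT and -2.32 in DD + rDKK3 against WT, below every grey point, and no point passed the test.

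None of the 12 acinar regulators tested was called, and their medians were 0.15 in DD against WT and 0.14 in DD + rDKK3 against DD. Between DD + rDKK3 and WT the median was 0.30. Ptf1a, the pancreas-specific subunit of PTF1, stood at 118.7 and 219.9 CPM in WT, 242.3 and 209.0 in DD, then 263.8 and 284.9 in DD + rDKK3, so its lowest library, WT 1, was the one highest in Amy2b. DD against WT gave 0.41 (SE 0.28, adjusted p = 0.612 by edgeR). Its partners in the complex gave 0.11 (Rbpjl), 0.13 (Rbpj, the related subunit of the embryonic complex), 0.075 (Tcf3) and 0.12 (Tcf12), the last pair being E proteins.

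Among the other acinar regulators, Bhlha15, which shapes the secretory apparatus, had a log2 fold change of 0.55 (SE 0.44) in DD against WT, and Xbp1, a factor of the unfolded protein response, one of -0.45 (SE 0.22). The nuclear receptor Nr5a2 gave -0.056, Gata4 0.17, Gata6 0.26 and Foxa2 0.26. All 12 were higher in DD + rDKK3 than in DD, by 0.013 (Rbpjl) to 0.30 (Bhlha15), with adjusted edgeR p-values of 1. Of all genes tested, 50.5% were lower in that comparison.

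Of 7 genes of the glucocorticoid response, which the dexamethasone in the medium should act on in all groups, none was called. Fkbp5, a co-chaperone of the receptor, gave 0.60 (SE 0.19, adjusted p = 0.586 by edgeR) in DD against WT. Nr3c1, the receptor itself, gave 0.092, Tsc22d3 -0.16, Per1 -0.19, Sgk1 -0.23, Klf9 0.0079 and Zbtb16 -0.20. In DD + rDKK3 against DD all 7 were higher, with a median of 0.28 and the largest value in Zbtb16 (0.65, SE 0.19, adjusted p = 1 by edgeR). There, 50.5% of all genes tested were lower.

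Of 6 genes that finish starch digestion or take up glucose 5 were tested and none was called. The sodium-glucose transporter Slc5a1 stood at 11.1 and 14.7 CPM in WT, 7.0 and 6.41 in DD, then 6.02 and 5.81 in DD + rDKK3. Both WT libraries were above all Dkk3-null libraries, with a log2 fold change of -0.94 (SE 0.22, adjusted p = 0.509 by edgeR) in DD against WT. The share of all genes with that order of libraries was not computed. In the same comparison Gaa gave 0.20, Slc2a1 0.34, Mgam -0.46 and Slc2a2 -0.96. Sis, the intestinal sucrase-isomaltase, had 0 counts. None of the 6 parotid and salivary genes passed the filter. Bpifa2, Smr3a, Dcpp1 and Dcpp2 had 0 counts, while Car6 averaged 0.057 CPM and Aqp5 0.14 over all libraries. The source of the Amy1 counts was not tested.

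On the chromosome, the other row named for the family, the pseudogene Amy2-ps1, had 18 and 0 counts in WT, 3 and 3 in DD, then 6 and 10 in DD + rDKK3, too few to test. The 10 nearest tested genes, 5 on each side, were not called in any comparison. On the side of Amy1 they were Rnpc3, a spliceosome component, ENSMUSG00000121018, S1pr1, A930005H10Rik and Dph5. Rnpc3, which touches Amy1, averaged 14.9 ± 1.25 CPM in WT, 14.0 ± 1.87 in DD, then 14.4 ± 0.68 in DD + rDKK3 (SD, n = 2), and DD against WT gave -0.094. The other 4 gave -0.52 to -0.14. On the side of Amy2b the nearest tested gene, C130013H08Rik, was 2894 kb away, and it gave 0.082. Prmt6 gave -0.013, Vav3 1.06, Slc25a24 0.78 (adjusted p = 0.555 by edgeR) and Fam102b 0.99, so no neighbour on either side was as low in DD as Amy2b.

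Across the 6 libraries, the genes outside the family whose log2 CPM tracked the family sum most closely were St7l (Pearson r = 0.999), Orai3 (0.995), Kctd14 (0.985), 0610012G03Rik (0.980) and Tmem51 (0.968), out of 8914 genes compared. Those closest to Amy2b were Ramp1, a receptor activity-modifying protein (0.987), Ggact (0.984), Tmem254 (0.981), Acbd4 (0.978) and Irf1, an interferon-regulated factor (0.975). With 6 points that share group and depth, the best of so many genes is bound to be close, and the values are a description. Ramp1 stood at 48.5 and 42.2 CPM in WT and between 24.9 and 30.7 in the 4 Dkk3-null libraries.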

How the data were processed

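Bulk RNA-seq of 6 acinar cultures was analysed from the deposited table of raw counts. Per their methods, the authors prepared strand-specific libraries and aligned paired 50-base reads with STAR 2.7.9a to GRCm39 with the basic GENCODE M32 annotation. They counted read alignments over exons in union mode, ignoring secondary alignments, before any normalisation. A read that fits several copies equally well cannot be credited to one of them by sequence. Whether such reads were left out or counted at a primary alignment is not stated. Per the submitters' processing notes, Picard 2.19.2, R 4.2.2 and DESeq2 1.38.0 were also used.

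From the deposited counts, 92 spike-in rows (0 counts) were left out. Genes were kept with edgeR's filterByExpr (minimum count 10, minimum total 15) and scaled by TMM. edgeR 4.0.16 (R 4.3.3) fitted a quasi-likelihood model over all 6 libraries, grouped by title, with 3 residual degrees of freedom. F-tests were two-sided with Benjamini-Hochberg adjustment over 14738 genes and a threshold of 0.05. Log2 CPM used a prior count of 2. The SE of a log2 fold change was its size divided by the square root of F. Family sums and shares were compared by exact permutation over libraries. Alternatives were DESeq2 1.42.0, limma 3.58.1 (voom), other scalings, no filter, replicate blocks and libraries left out. The procedure was tested on simulated counts.

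Library totals of 12018473 to 19750401 counts set the precision, with Wilson intervals at 95% and a floor of 3 counts. Uniqueness was computed over 50-base windows of GRCm39 transcripts in GENCODE M39, with Biopython 1.88 on Python 3.11.15, against the other transcripts and genomic sequence of the cluster only. Named genes are all members, other family rows, Dkk3, 5 tested genes on each side, the 5 genes most alike (average log2 CPM of at least 3), all acinar regulators and glucocorticoid genes, and of the other enzymes the 5 most abundant and 3 of smallest p in each comparison; Slc5a1 and Sis were chosen after their values were seen. For 1 acinar regulator no value is reported here. The members and lists were chosen with earlier results of these data known.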

Additional observations from a re-analysis of the deposited data

How the results depend on the processing

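For single copies, 143 log2 fold changes kept direction and side of the threshold, 7 of Amy2b passed it and 6 reversed. Reversed were Amy1 in DD against WT scaled by library size alone (0.010), without WT 1 (0.16) and without DD 1 (0.086), Amy2a1 in DD against WT without WT 1 (0.034) and without DD 1 (0.037), and Amy2a5 in DD + rDKK3 against WT without WT 1 (0.68). Another filter or test called Amy2b, 1 copy in DD against WT and 1 in DD + rDKK3 against WT without the filter on low counts and by DESeq2, and 1 in DD against WT by limma-voom; the cause was not tested. The other enzymes called numbered 7 and 2 in these comparisons without the filter, and by DESeq2 5 in DD against WT, 1 in DD + rDKK3 against DD and 1 in DD + rDKK3 against WT. Without Amy2b the family log2 ratio moved to -0.25 (DD against WT) and 0.43 (DD + rDKK3 against WT). Leaving out each library in turn called 0 copies; in DD against WT Amy2b gave -3.09 to -2.27, Amy1 -0.56 to 0.16, Amy2a1 -0.79 to 0.037 and Amy2a5 -1.54 to -0.038; against WT, DD + rDKK3 gave Amy2b -2.67 to -1.84 and Amy2a5 -0.83 to 0.68; the family sum gave -1.74 to -0.95, 0.32 to 0.96 and -1.11 to -0.33 in the 3 comparisons. Scaling by library size only shifted the all-gene median to 0.22 (DD against WT), so log2 fold changes of that setting are relative to it. Genes called numbered 6, 0 and 7 in the 3 comparisons, 528, 73 and 788 without the filter, 80, 5 and 74 by DESeq2, and 8, 0 and 3 by limma-voom.

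No label names an animal shared by same-numbered libraries, and only the DD and DD + rDKK3 titles share a name, so the numbers were not used as pairs. Deviations of same-numbered libraries correlated at -0.39 (WT and DD), 0.65 (DD and DD + rDKK3) and -0.25 (WT and DD + rDKK3). A replicate block over all 6 libraries called 0 copies and 7, 0 and 5 genes (Amy2b adjusted p = 0.154 in DD against WT, edgeR). A replicate block within the Dkk3-null libraries called 20, 0 and 15 genes and 1 copy, Amy2b, in each comparison with WT (adjusted p = 0.000672 and 0.0021, edgeR). Within that block, alternatives added after seeing the data called 1 copy in DD against WT without WT 1 and 3 without WT 2, each with few degrees of freedom left for the spread.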
